A study of Mus musculus with 6 samples.

Results

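The 10 genes described here form the transcriptional loop of the circadian clock: the activators Arntl (also called Bmal1), Clock and Npas2, and the repressors Per1, Per2, Per3, Cry1, Cry2, Nr1d1 and Nr1d2. They were found on the arrays through the RefSeq accession of each probe, which gave 18 probes for the 10 genes, out of 32994 probes that name 22911 genes. The livers came from 3 male mice with a liver-specific Elovl6 knockout (LKO) and from 3 male control mice, titled Flox in the labels. Elovl6 encodes an enzyme that elongates palmitate into stearate. All 6 mice ate a high-sucrose diet (D11725) for 14 days, with a fast of 4 hours at the end, and each array (Agilent, 1 colour) holds the liver RNA of 1 mouse. The age of the mice, the Cre driver and the clock time at which the livers were taken are not given in the sources used here. All comparisons set LKO against control with n = 3 mice per group at 1 moment, so a shift in time and a change in level cannot be told apart.

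In mammalian cells BMAL1 (the product of Arntl) pairs with CLOCK or NPAS2 and switches on genes that carry an E-box, among them the Per, Cry and Nr1d genes. PER and CRY proteins then hold back that pair, while NR1D1 and NR1D2 (REV-ERB alpha and beta) silence Arntl and other genes through a site called RORE, on which ROR proteins act in the opposite direction. A further group, DBP, TEF and HLF, activates genes with a D-box, and NFIL3 represses them. In the liver this loop times much of glucose, lipid and bile acid metabolism, Arntl transcripts run nearly opposite in phase to Nr1d1, Dbp and Per transcripts, and feeding resets the liver's phase.

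RefSeq promoter windows of the assembly GRCm38.p6, each of 300 bases from 250 before to 50 after a gene's start, were matched for 9 of the 10 genes (all but Per2) in 13 windows. Both strands were searched for the E-box CACGTG, for the D-box written as TTATGTAA, TTACGTAA or TTATGCAA, and for the RORE core written as TAGGTCA or TGGGTCA. An E-box was found in the windows of 2 genes (Cry1 and Per1), a D-box in those of 2 genes (Per1 and Per3) and a RORE core in that of 1 gene (Arntl). Counted by window, these were 2, 2 and 1 of the 13 windows. Among all 32851 windows, 7.15% held such an E-box, 1.78% such a D-box and 6.45% such a RORE core. The 5 genes Clock, Npas2, Cry2, Nr1d1 and Nr1d2 had none of these letters in their windows, which says nothing of sites elsewhere. The stretches below are shown because Arntl and Cry1 are the 2 members whose groups did not overlap, and because Per1 and Per3 carry the D-box letters of the DBP family described further on. Capitals mark the motif letters, and each line runs 5′ to 3′ on the strand of the gene.
Arntl, RORE core, chr7:113207530-113207559, plus strand: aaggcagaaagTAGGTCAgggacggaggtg
Cry1, E-box, chr10:85185055-85185204, minus strand: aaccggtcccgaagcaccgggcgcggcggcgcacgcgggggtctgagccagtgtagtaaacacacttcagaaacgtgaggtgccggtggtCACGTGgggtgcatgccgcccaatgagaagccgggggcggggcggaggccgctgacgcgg
Per1, E-box and D-box, chr11:69098749-69098948, plus strand: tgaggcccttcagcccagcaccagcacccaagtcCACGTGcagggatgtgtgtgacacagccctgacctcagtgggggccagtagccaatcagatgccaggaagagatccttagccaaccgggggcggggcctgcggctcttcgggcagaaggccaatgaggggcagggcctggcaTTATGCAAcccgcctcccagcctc
Per3, D-box at 2 places, chr4:151044766-151044895, minus strand: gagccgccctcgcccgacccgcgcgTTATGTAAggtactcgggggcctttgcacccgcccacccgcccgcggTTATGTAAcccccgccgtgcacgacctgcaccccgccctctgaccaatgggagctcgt

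Each array had 59305 spots, of which 52.1% to 56.6% exceeded the background clearly by the scanner software's flag and 0 were saturated, and the number of arrays limits the precision. All 6 arrays lay on 1 slide. One of its columns held the 3 control mice and LKO 1, and the other column held LKO 2 and LKO 3, so a fit with the column as a covariate sets LKO 1 alone against the controls. Scaled signals below are processed signals brought to a common 75th percentile, and the signal of one probe is not set against that of another. The targeted gene Elovl6 had 64.3, 93.6 and 102 scaled signal units in LKO livers, against 6014, 12027 and 6410 in control livers, so every mouse matched its label. The hepatocyte markers, such as Alb and Ttr, passed that flag on all arrays for 8 of 8 genes, and their summed scaled signal was 1577000 to 1656000 in LKO livers and 1527000 to 1561000 in control livers. That sum includes Fgb, which is also in the acute phase list below (means 202290 in LKO and 155180 in control livers). Of the 8, 7 had higher values in LKO livers, with a log2 change of 0.01 for Alb. Ttr was lower (-0.16), without overlap of the groups. In whole liver, fewer cells of a type and less RNA per cell cannot be told apart.

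Of the 10 clock genes, 8 were tested, because their brightest probe passed the flag for well above background on every array of LKO or of control livers. None of the 8 passed limma's test at an adjusted p of 0.05, where 0.0141% of the 14170 genes tested were called (2 genes). At an unadjusted p under 0.05 there were 2 of the 8, Cry1 and Arntl, both lower in LKO livers, against 11.2% of all genes (5.56% lower and 5.59% higher). The same 2 were the ones whose groups did not overlap, against 17.2% of all genes (9.03% lower and 8.16% higher). For such a gene an exact permutation test of 3 mice against 3 gives p = 0.1, the smallest it can give. For 8 genes those shares come to about 1 gene, so neither count sets the clock genes apart from the background. Cry1 is in both counts, but it was tested only through the control arrays, the group where it was higher. Its probe passed the flag on all 3 control arrays and on 2 LKO arrays. The median log2 change of the 8 was -0.01 and that of all genes 0.00, with 4 of the 8 higher and 4 lower in LKO livers.

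**Figure D1:**
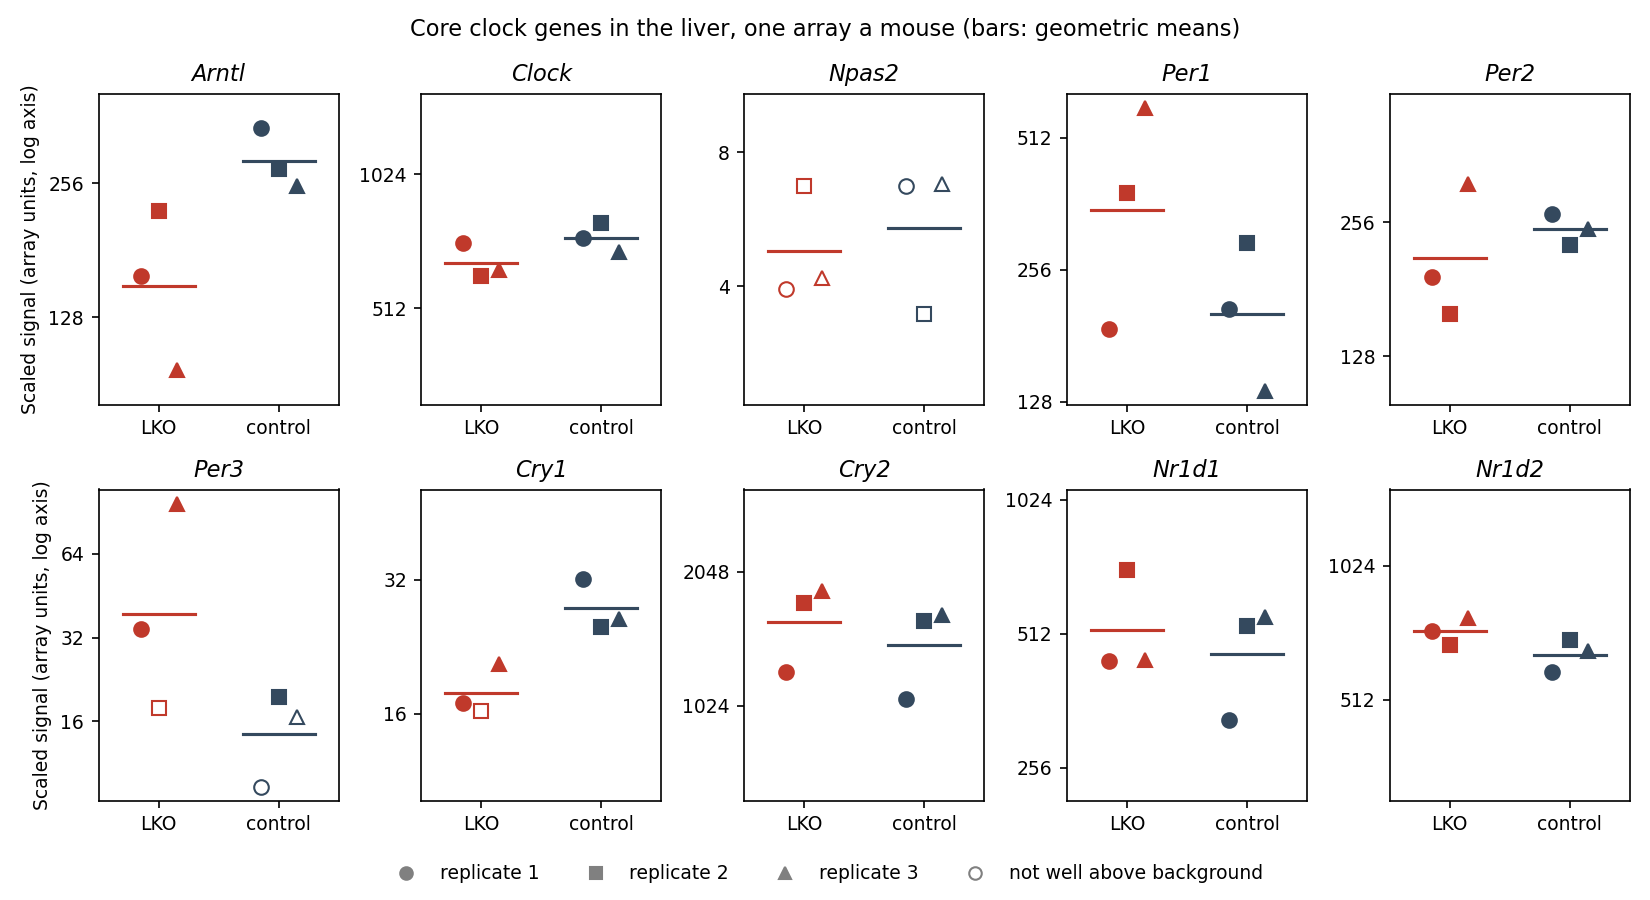
Scaled signal (array units, log axis, own range in each panel) of the brightest probe of each of the 10 clock genes, with the 3 LKO mice left of the 3 control mice in each panel, a symbol for each replicate, bars at the geometric means and open symbols where the spot was not well above background. The groups are apart for Arntl and Cry1, Npas2 is open on all arrays, and the highest Per1, Per2 and Per3 values are those of LKO 3.

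Among the activators, Arntl, the partner that every active complex of the loop needs, had 158, 222 and 97.1 scaled signal units in LKO livers, against 341, 275 and 252 in control livers. All LKO mice lay below all control mice, and LKO 3 was the lowest of all. The means were 159 ± 62.2 in LKO livers and 289 ± 45.9 in control livers (SD, n = 3 each). The log2 change was -0.93 ± 0.29 (SE), 1.91-fold lower, with a 95% interval from -1.63 to -0.23, an unadjusted p of 0.0162 and a limma adjusted p = 0.337, so Arntl did not pass. By p it stood at rank 679 of 14170 genes. The log2 change of Arntl was -0.62 without LKO 3 and -0.86 once the slide column was fitted.

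Arntl has 2 further, dimmer probes, and both had the same order of groups. The probe A_66_P127371 had 39.4, 35.7 and 14.2 units in LKO livers, against 53.5, 56.3 and 54.1 in control livers, a log2 difference of -1.01. The probe A_55_P2735445 had 21.2, 25.7 and 12.3 units in LKO livers, against 34.5, 32.0 and 35.4 in control livers, a log2 difference of -0.85. On both, the LKO mice lay below the control mice, and LKO 3 was the lowest and not well above background.

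Clock, the usual partner of BMAL1 and a histone acetyltransferase, had 718, 606 and 622 units in LKO livers, against 736, 798 and 683 in control livers. LKO 2 and LKO 3 lay below the control range and LKO 1 within it. The log2 change was -0.19 ± 0.11 (SE, 95% interval -0.44 to 0.06, limma adjusted p = 0.571), and -0.04 once the slide column was fitted. Its next brightest probe, A_52_P334670, had 212, 195 and 187 units in LKO livers, against 235, 252 and 209 in control livers. There the groups again overlapped, by LKO 1 alone, with a log2 difference of -0.23. The remaining Clock probe was well above background on 1 array only, that of LKO 3.

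Npas2, a paralogue that can replace CLOCK, had its 1 probe well above background on no array, with 3.95 to 6.72 units in LKO livers and 3.47 to 6.78 in control livers, so no change can be given. Arntl2, the paralogue of Arntl and not a member of the loop as listed, had 64.9, 65.1 and 82.8 units in LKO livers, against 72.4, 56.2 and 72.4 in control livers. The groups overlapped throughout (log2 change 0.08 ± 0.15, SE, limma adjusted p = 0.881).

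Of the repressors, Cry1, the slower-peaking and stronger of the cryptochromes, had the smallest p among the members. It had 16.9, 16.2 and 20.6 units in LKO livers, against 32.0, 25.0 and 26.1 in control livers. The highest LKO mouse was below the lowest control mouse, and the means were 17.9 ± 2.37 and 27.7 ± 3.79 (SD, n = 3 each) in LKO and control livers. The log2 change was -0.63 ± 0.14 (SE), 1.55-fold lower, with a 95% interval from -0.96 to -0.30, an unadjusted p of 0.00302 and a limma adjusted p = 0.225, at rank 190 of 14170 genes. The probe is dim, and the spot of LKO 2 did not pass the flag for well above background, so the fold is less certain than that of a bright probe. The log2 change of Cry1 was -0.23 with normexp background correction and -0.70 once the slide column was fitted.

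The other Cry1 probe was well above background on no array. Cry2, the other cryptochrome, had 1222, 1748 and 1855 units in LKO livers, against 1061, 1591 and 1635 in control livers. In each group replicate 1 was the lowest, and the ranges overlapped (log2 change 0.17 ± 0.22, SE, 95% interval -0.36 to 0.71, limma adjusted p = 0.822). Its sign turned once the slide column was fitted (-0.20).

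Per1, which is also induced directly by glucocorticoid and cyclic AMP signals, had the widest spread of the members tested. It had 188, 382 and 600 units in LKO livers, against 209, 295 and 136 in control livers. LKO 2 and LKO 3 lay above all control mice, and LKO 1 lay within the control range. The log2 change was 0.79 ± 0.46 (SE, 95% interval -0.30 to 1.88, limma adjusted p = 0.582), and it was 0.40 without LKO 3, 1.24 without LKO 1 and -0.11 once the slide column was fitted.

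Per2, the period gene that responds to feeding and temperature cues, had 193, 159 and 312 units in LKO livers, against 267, 227 and 248 in control livers. LKO 1 and LKO 2 lay below the control range and LKO 3 above it, so the mean difference hides opposite positions (log2 change -0.22 ± 0.24, SE, 95% interval -0.79 to 0.36, limma adjusted p = 0.786). The Per2 value was -0.49 without LKO 3, -0.0067 without LKO 2 and -0.35 once the slide column was fitted. The second Per2 probe, A_52_P536869, had 40.3, 34.8 and 33.5 units in LKO livers, against 37.9, 41.1 and 31.6 in control livers. It did not place LKO 3 above the controls, so the Per2 probes disagree on that mouse.

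Per3, the period gene that is dispensable for the loop, was not tested, because its brighter probe was well above background on 2 LKO arrays and 1 control array. That probe had 34.3, 17.9 and 97.0 units in LKO livers, against 9.34, 19.6 and 16.6 in control livers. The values well above background were those of LKO 1, LKO 3 and control 2, and LKO 3 was the highest. The other Per3 probe was well above background on no array.

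Nr1d1, the nuclear receptor REV-ERB alpha that silences Arntl, had 445, 712 and 448 units in LKO livers, against 327, 531 and 559 in control livers. The groups overlapped, with LKO 2 highest and control 1 lowest (log2 change 0.18 ± 0.27, SE, 95% interval -0.45 to 0.82, limma adjusted p = 0.846). Its sign turned without LKO 2, without control 1 and once the slide column was fitted. The interval allows anything between a moderate decrease and an increase, so equality is not shown.

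Nr1d2, REV-ERB beta, had 730, 682 and 783 units in LKO livers, against 590, 696 and 660 in control livers. Only LKO 2 lay within the control range (log2 change 0.17 ± 0.10, SE, 95% interval -0.07 to 0.41, limma adjusted p = 0.583). Its dimmer probe, A_52_P303891, had 393, 364 and 411 units in LKO livers, against 283, 318 and 344 in control livers. There all LKO mice lay above all control mice, with a log2 difference of 0.31.

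**Figure D2:**
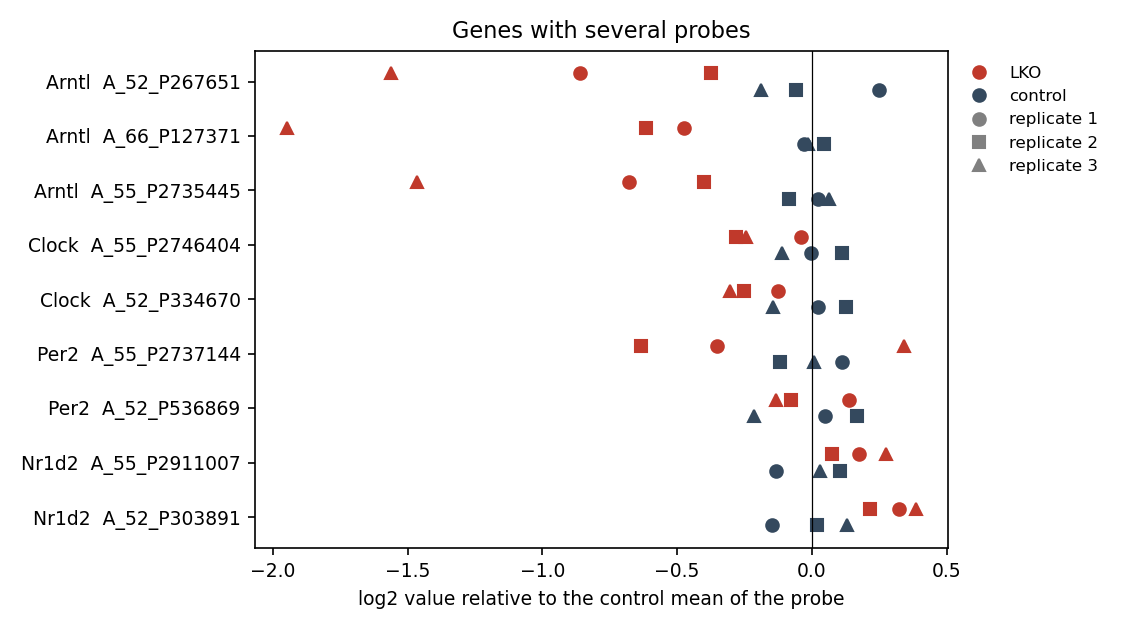
The x axis gives the log2 value of each array relative to the control mean of the same probe, for the 4 clock genes that have more than 1 probe well above background on all arrays of a group, with LKO mice above control mice in each row. The 3 Arntl probes and the 2 Clock probes have the same sign, the 2 Nr1d2 probes lie to the right, and LKO 3 changes side between the 2 Per2 probes.

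The activators were set against the repressors as a reading of phase, since Arntl and the Per and Nr1d transcripts peak at nearly opposite times in liver. Clock is only weakly rhythmic there and Cry1 peaks later than the Per genes, so the split by role is a coarse one. Of the 2 activators tested, both had lower values in LKO livers. Of the 6 repressors tested, Per1, Cry2, Nr1d1 and Nr1d2 had higher values and Cry1 and Per2 lower ones. Per mouse, the mean log2 value of the activators minus that of the repressors was 0.08, -0.10 and -0.94 in LKO livers, against 0.55, 0.22 and 0.19 in control livers, each gene taken relative to its mean over the arrays. The LKO mice lay below the control mice, LKO 1 by a small margin and LKO 3 by a large one. Arntl, whose groups were apart by themselves, is part of this index, so that order is not a result separate from Arntl. The group means were -0.32 ± 0.54 in LKO livers and 0.32 ± 0.20 in control livers (SD, n = 3 each), a difference of -0.64, described without a test because it is a score over chosen genes.

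The 2 sides did not contribute alike. The activator mean differed by -0.56 between the groups and the repressor mean by 0.08, on the log2 scale. Without Arntl the index differed by -0.27, without LKO 3 by -0.33, without LKO 2 by -1.02 and once the slide column was fitted by -0.24. The Clock value of LKO 1 lay within the control range, and its repressor mean (-0.25) was the lowest of all mice. Without Arntl, LKO 1 lay above all control mice on the index, and LKO 2 and LKO 3 lay below all of them. The groups overlapped there, so the difference of -0.27 hides opposite positions. The PER and CRY genes averaged -0.34, -0.04 and 0.47 in LKO livers relative to the control mean, against -0.01, 0.12 and -0.11 in control livers. LKO 1 was below the controls and LKO 3 above them, so the LKO mice differed more among themselves than the groups did. The 2 Nr1d genes averaged 0.06, 0.35 and 0.12 in LKO livers, against -0.31, 0.16 and 0.16 in control livers, where the groups overlapped.

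**Figure D3:**
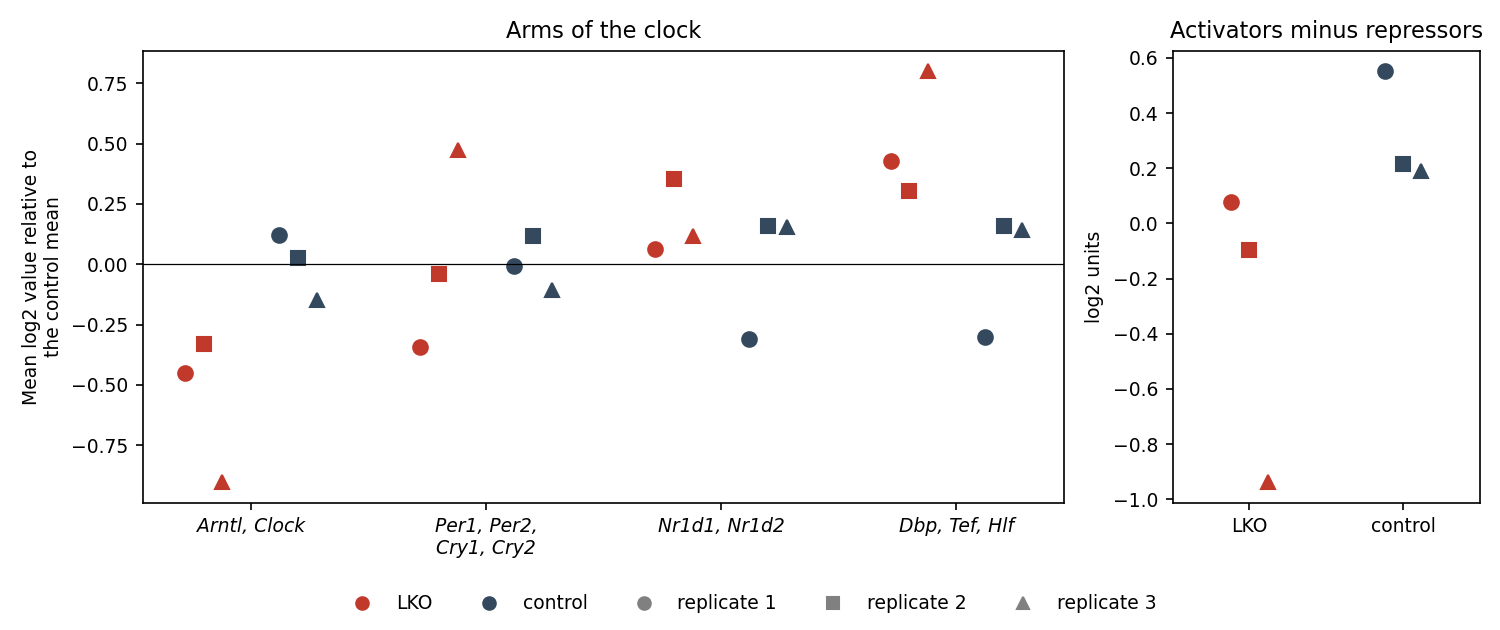
The left panel gives, for each mouse, the mean log2 value of 4 sets of clock genes relative to the control mean, LKO mice left of control mice in each set, and the right panel the activator mean minus the repressor mean. Arntl and Clock lie below 0 in the 3 LKO mice, the Per and Cry genes scatter widely, and LKO 3 has the lowest activator mean and the lowest index, while LKO 2 is the highest for the Nr1d genes.

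Ratios taken within an array do not depend on the scaling of arrays, and the pairs here were chosen after their values were seen. Relative to the control mean, the log2 ratio of Nr1d1 over Arntl was 0.81, 1.01 and 1.52 in LKO livers, against -0.74, 0.27 and 0.47 in control livers, without overlap. The ratio of Nr1d2 over Arntl was 1.04, 0.45 and 1.84 in LKO livers, against -0.38, 0.16 and 0.22 in control livers, also without overlap. Arntl alone did not overlap between the groups, while the brightest probes of Nr1d1 and Nr1d2 did. The ratios share Arntl, so their lack of overlap is not a result separate from Arntl. No share over all pairs of genes was taken. The ratio of Per2 over Arntl was 0.51, -0.26 and 1.90 in LKO livers, against -0.13, -0.06 and 0.19 in control livers, and overlapped. The ratio of Clock over Arntl was 0.82, 0.09 and 1.32 in LKO livers, against -0.25, 0.17 and 0.08 in control livers, so Arntl and Clock did not move in step in LKO 1 and LKO 3.

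The genes directly around the loop were read from a list of 12, of which 11 were on the array and 9 were tested. None passed an adjusted p of 0.05, 6 had higher and 3 lower values in LKO livers, and the median log2 change was 0.23, against 0.00 for all genes. At an unadjusted p under 0.05 there were 3, all higher, against 11.2% of all genes (5.59% higher): Tef, Dbp and Timeless. Dbp, the classic E-box target of BMAL1 and CLOCK, had 4656, 4700 and 8634 units in LKO livers, against 1897, 3752 and 3636 in control livers. All LKO mice lay above all control mice, LKO 3 farthest, and control 1 was the lowest. The log2 change was 0.96 ± 0.34 (SE), 1.94-fold higher, with a limma adjusted p = 0.391, and it was 0.64 without control 1, 0.66 without LKO 3 and 0.65 once the slide column was fitted. The second Dbp probe had a log2 difference of 1.02 without overlap of the groups.

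Tef, a relative of DBP that acts on the same D-box, had 7157, 5876 and 9565 units in LKO livers, against 4341, 4794 and 4946 in control livers. The groups did not overlap and the control mice lay close together (log2 change 0.66 ± 0.18, SE, 1.58-fold higher, limma adjusted p = 0.284). Of its other probes, A_52_P485573 had a log2 difference of 0.54 and the dim A_52_P173309 one of 0.09. Hlf, the other member of this family, had 489, 453 and 427 units in LKO livers, against 433, 517 and 498 in control livers, and overlapped (log2 change -0.08 ± 0.10, SE, limma adjusted p = 0.822). For Hlf neither direction was shown.

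Timeless, a replication-fork protein named after a clock gene of the fly, had 110, 140 and 175 units in LKO livers, against 77.7, 89.2 and 107 in control livers, which did not overlap (log2 change 0.62 ± 0.19, SE, limma adjusted p = 0.337). Its value was 0.40 with normexp and 0.29 once the slide column was fitted. The dimmer Timeless probe, A_52_P379531, had 26.2, 35.8 and 44.1 units in LKO livers, against 28.3, 23.8 and 38.1 in control livers. On that probe the groups overlapped, with a log2 difference of 0.23. Nfil3, the repressor at D-box sites, had 1828, 2200 and 3993 units in LKO livers, against 2009, 1420 and 1324 in control livers. LKO 1 lay within the control range and LKO 3 far above it (log2 change 0.70 ± 0.31, SE, limma adjusted p = 0.474). The Nfil3 value was 0.36 without LKO 3 and 0.23 once the slide column was fitted. Rora, a nuclear receptor that competes with REV-ERB at the RORE, overlapped between the groups on its brightest probe (log2 change -0.07 ± 0.11, SE, limma adjusted p = 0.856). Its probe A_55_P2078123 had 516, 487 and 501 units in LKO livers, against 540, 572 and 556 in control livers. There the LKO mice lay below the control mice, with a log2 difference of -0.15.

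Enzymes that modify or degrade clock proteins were read from a list of 12, of which 11 were tested. None passed, 7 had lower and 4 higher values in LKO livers, and the median log2 change was -0.07. Usp2, a deubiquitinase acting on clock proteins and itself rhythmic in liver, had 82.5, 76.4 and 210 units in LKO livers, against 44.8, 58.3 and 61.5 in control livers. The groups did not overlap and LKO 3 was far above the rest (log2 change 1.01 ± 0.38, SE, limma adjusted p = 0.416, and 0.55 without LKO 3). Prkaa2 and Prkaa1, the catalytic subunits of AMP-activated kinase, which marks CRY1 for degradation, had log2 changes of -0.45 ± 0.19 and -0.33 ± 0.14 (SE, limma adjusted p = 0.447 and 0.456). Once the slide column was fitted, these were -0.017 for Prkaa2 and -0.13 for Prkaa1. The casein kinases Csnk1d and Csnk1e, which phosphorylate PER proteins, had log2 changes of 0.10 ± 0.08 and -0.17 ± 0.11 (SE, limma adjusted p = 0.700 and 0.636).

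Rhythmic liver genes downstream of the loop were read from a list of 12, and all 12 were tested. None passed, 8 had higher and 4 lower values, and the median log2 change was 0.23. Upp2, a uridine phosphorylase, had 1708, 1994 and 1802 units in LKO livers, against 979, 929 and 1135 in control livers, with a log2 change of 0.86 ± 0.11 (SE, limma adjusted p = 0.104). Por, the reductase that passes electrons to cytochromes P450, had 8385, 9047 and 10490 units in LKO livers, against 5656, 4531 and 4561 in control livers (log2 change 0.92 ± 0.13, SE, limma adjusted p = 0.113). In neither gene did the groups overlap. Por passed with normexp (limma adjusted p = 0.0355).

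Insig2, which holds SREBP in the endoplasmic reticulum and is a target of REV-ERB alpha, had 8674, 8071 and 6304 units in LKO livers, against 12807, 11988 and 9773 in control livers. The LKO mice lay below the control mice (log2 change -0.59 ± 0.16, SE, limma adjusted p = 0.283), and its 2 other probes had log2 differences of -0.65 and -0.57. Elovl3, an elongase driven by the clock in male liver, had a log2 change of -0.56 ± 0.32 (SE, limma adjusted p = 0.585), which was -0.24 without LKO 3, -0.31 without control 1 and -0.18 once the slide column was fitted. Cyp7a1, the rate-limiting enzyme of bile acid synthesis, had one of 0.84 ± 0.60 (SE, limma adjusted p = 0.657), between 0.28 without control 2 and 1.71 once the slide column was fitted. Nampt and Wee1, textbook outputs of the E-box, had log2 changes of 0.02 ± 0.12 and 0.32 ± 0.23 (SE), and neither passed (limma adjusted p = 0.970 and 0.666).

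**Figure D4:**
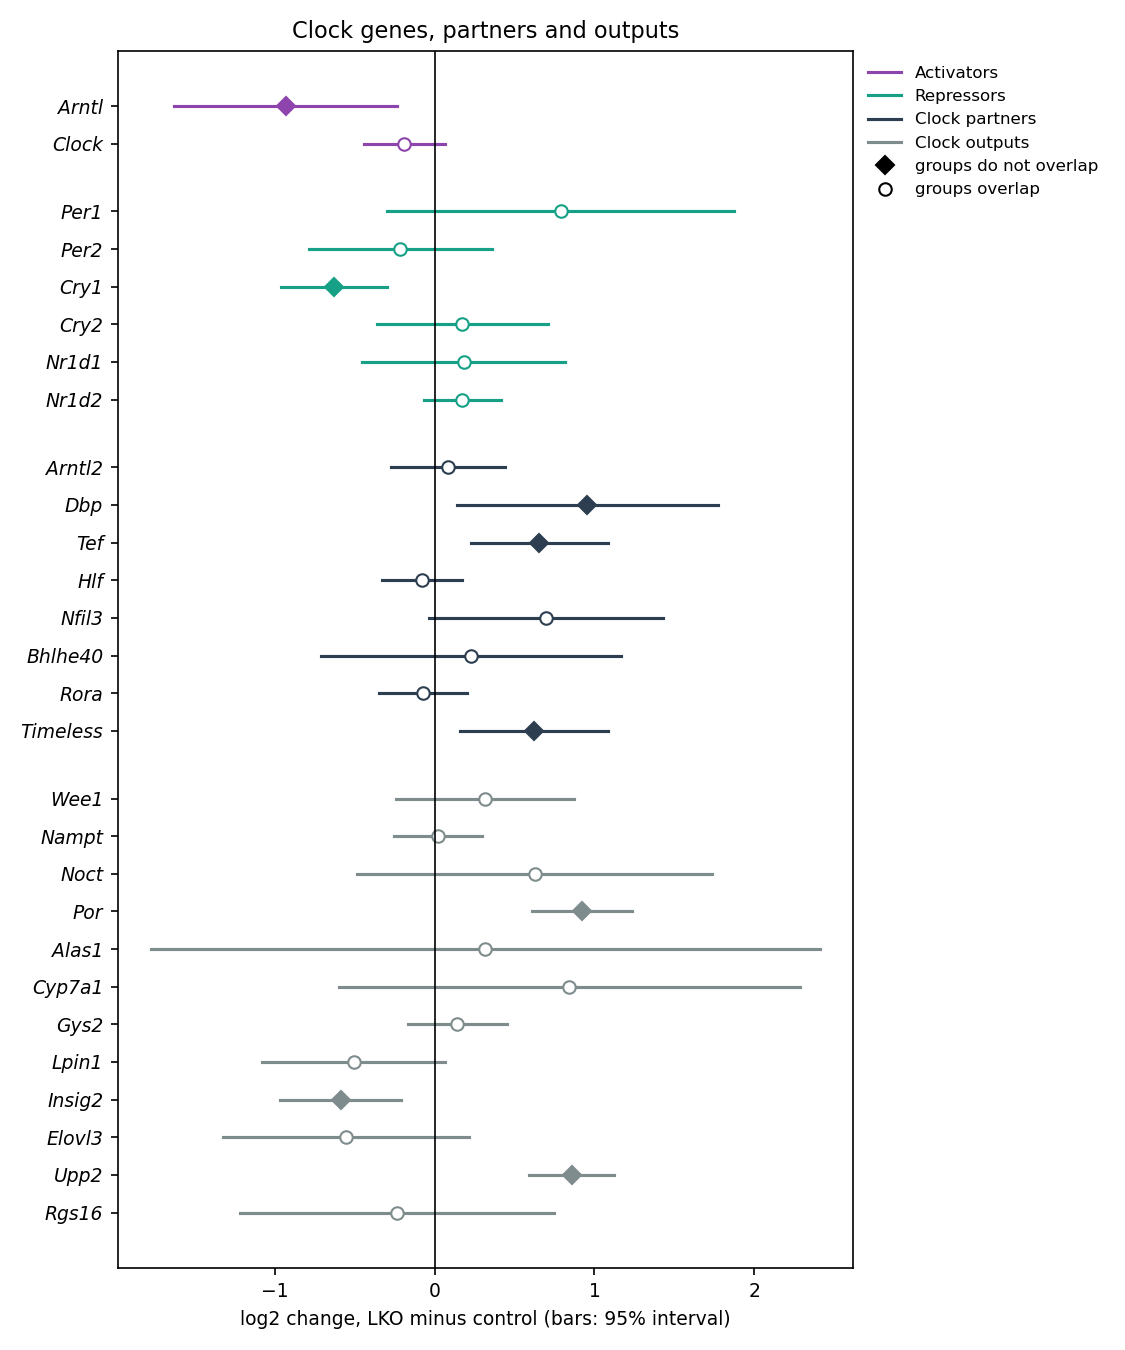
The x axis gives the log2 change, LKO minus control, with its 95% interval for the 8 clock genes tested (activators, then repressors), 8 partners and the 12 outputs, and filled diamonds mark genes whose groups do not overlap. Arntl and Cry1 lie left of 0, Dbp, Tef, Timeless, Por and Upp2 right of it, Insig2 left of it, and no gene drawn passed the test over all genes.

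The tested genes whose values over the 6 arrays lay nearest to those of Arntl, by the root mean square difference of log2 values, were Ptpa (0.13), Zbtb32 (0.23) and Ckap2 (0.24). Nearest to Nr1d1 were H1f2 (0.09), Acmsd (0.10) and Tbx3 (0.11). These were chosen from 14162 genes for likeness on 6 arrays, so the values only describe these mice.

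Values of inflammation genes stood beside these. All 17 acute phase genes tested, plasma and metal-binding proteins that an inflamed liver makes, had higher values in LKO livers, 16 of them at an unadjusted p under 0.05 (11.2% of all genes, 5.59% higher) and 0 at an adjusted p of 0.05 by limma. Relative to the control mean they averaged 0.83, 1.57 and 2.03 on the log2 scale in LKO livers, against -0.23, -0.07 and 0.30 in control livers, and their summed scaled signal was 1088000 to 1637000 in LKO livers and 616400 to 743500 in control livers. LKO 3, which had the lowest Arntl and the highest Dbp and Per1, was also the highest in this list. LKO 1 was lower in this list than LKO 2, but also had the lower Arntl (158 against 222 units). Dbp was nearly level in these mice (4656 and 4700 units), and Per1 was lower in LKO 1 (188 against 382 units). LKO 3 also had the highest mean of the macrophage markers (0.55) and of the cyclic AMP and fasting list described further on (0.60). In the glucocorticoid and temperature lists described there, control 1 was the highest. All 8 macrophage markers were tested and had higher values, with a summed scaled signal of 29030 to 34570 in LKO livers and 23380 to 31870 in control livers. Of the 8 lymphocyte and neutrophil markers 6 were tested, and their sum was 2274 to 5759 in LKO livers and 1693 to 1818 in control livers, with Cd8a too dim to test and Ly6g not named on the array. The part of inflammation or of these cells in the clock genes' values was not tested.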

How the data were processed

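Agilent Feature Extraction 11.5.1.1 made the scanner files, per the file headers and the submitters' processing notes. Per the file headers, the deposited processed signal is an intensity after the software's own background correction. Deposited median spot and background intensities are uncorrected, and deposited flags are other values, per the file headers. The authors' value table holds the same intensity times 1 constant per array (2.08 to 2.48), with medians of 63.7, 59.1 and 62.2 for LKO and 55.3, 62.9 and 61.5 for control arrays. It is linear, uncentred and of the same direction, but the choice of constants is not given in the sources read.

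Each processed signal was divided by its array's 75th percentile (263 to 294 units) and put on the log2 scale. Scaled signals multiply this back to 278 units. Control spots and 64 to 111 outlier spots per array were left out, spots of a probe averaged, and a gene represented by its brightest probe. A gene was tested if the scanner flag placed this probe well above background throughout at least 1 group. LKO and control were compared with limma 3.58.1 in R 4.3.3 (lmFit, eBayes, two-sided, Benjamini-Hochberg over 14170 genes, threshold 0.05). The fit was tested on simulated data. Normexp (offset 50) used median signals, since the files hold no mean signal. Accessions were named through RefSeq (GRCm38.p6). The array headers name another build. The values of 1 listed gene are not reported here.

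Alternatives changed the normalization, background, filter, probe choice, eBayes settings, slide column, replicate block or left out 1 mouse. The p-values set the difference between the groups against the spread within groups of these 6 mice, moderated over all genes by eBayes. The members and lists were chosen with earlier results of these data known. Named genes were the members, the 3 smallest p of each pathway list, and the 3 genes nearest to Arntl and Nr1d1. Arntl2, Hlf, Nfil3, Rora, Csnk1d, Csnk1e, Elovl3, Cyp7a1, Nampt and Wee1 outside this rule were named for their roles after their values were seen, and so was Hspa1a. Replicate numbers of the titles did not pair the mice (correlations of same-numbered deviations 0.04, -0.05 and -0.07).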

Additional observations from a re-analysis of the deposited data

How the results depend on the processing

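No alternative brought a clock gene past the threshold. The log2 change ranged from -1.21 to -0.62 for Arntl and from -0.73 to -0.23 for Cry1, and for genes whose groups do not overlap, leaving out a mouse cannot make them overlap. The adjusted p ranged from 0.216 to 0.9996 for Arntl and from 0.167 to 0.825 for Cry1, which was not tested where all arrays had to be well above background. That filter left 1 of 7 members without overlap, against 16.9% of all genes. Median scaling and the mean of probes each left 3 of 8, against 16.5% and 17.4% of all genes. Leaving out 1 mouse gave 2 to 5 members without overlap. There were 5 of 8 without LKO 1 (Arntl, Clock, Cry1, Per1 and Cry2) and 4 of 9 without LKO 2 (Arntl, Cry1, Per3 and Nr1d2). The shares of all genes in these fits were 31.9% and 26.3%. Per3 entered the fit without LKO 2 only through LKO 1 and LKO 3, the group where it was higher, so its lack of overlap there is not a result. The other fits without 1 mouse gave 2 or 3 of 8, against 25.3% to 31.7% of all genes. The activator minus repressor index differed by -0.64, by -0.24 with the slide column as a covariate, which sets only LKO 1 against the controls, and by -1.02 to -0.33 without 1 mouse (-1.02 without LKO 2). The indices without Arntl or Cry1 (-0.78) were chosen after seeing the data. The count of genes past the threshold was 2, and 1 without the dim-probe filter, with the filter on all arrays, with trend and robust eBayes and with the slide column, and 1 to 15 without 1 mouse (15 without LKO 1, 4 without control 1, 1 without LKO 3, control 2 or control 3). The replicate block gave 3 genes and the same changes, and not every mouse correlated best with its own number. No count without overlap was made with the slide column. With that covariate the sign turned for Cry2 (-0.20), Nr1d1 (-0.048), Per1 (-0.11), Acmsd (-0.17), Arntl2 (-0.036), Cirbp (0.28), H1f2 (-0.13), Hlf (0.021), Junb (-0.014), Nampt (-0.12) and Rora (0.025). Nampt also turned with median scaling (-0.022) and Csnk1d with the mean of probes (-0.10). Without 1 mouse the ranges spanned 0 for Cry2 (-0.028 to 0.36), Nr1d1 (-0.064 to 0.32), Acmsd (-0.024 to 0.40), Arntl2 (-0.040 to 0.14), Cirbp (-0.40 to 0.057), H1f2 (-0.10 to 0.20), Nampt (-0.072 to 0.088), Rora (-0.13 to 0.025) and Tbx3 (-0.16 to 0.29). These causes were not tested. The dim signals of Cry1, Per3 and Npas2 limit what can be said of them.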

Other observations

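Signals that can set the phase of the liver clock were read from 3 further lists, and none of their 24 genes passed an adjusted p of 0.05. Among 8 genes induced by glucocorticoids, 3 had higher and 5 lower values in LKO livers. Fkbp5, a co-chaperone of the glucocorticoid receptor, had 1578, 1351 and 1429 units in LKO livers, against 1132, 1051 and 1076 in control livers, without overlap (log2 change 0.42 ± 0.09, SE, limma adjusted p = 0.225). On its dimmer probe, A_52_P481493, the groups overlapped, with a log2 difference of 0.65. Dusp1, a phosphatase of MAP kinases, had a log2 change of -0.98 ± 0.41 and Sgk1, a kinase, one of -0.14 ± 0.14 (SE, limma adjusted p = 0.446 and 0.756). The list therefore held genes of both directions.

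Among 8 genes of the cyclic AMP and fasting response, 4 had higher and 4 lower values. Junb had a log2 change of 0.61 ± 0.26, G6pc, the glucose-releasing phosphatase, one of -1.18 ± 0.50, and Ppargc1a, a coactivator of fasting genes, one of -0.40 ± 0.26 (SE, limma adjusted p = 0.451, 0.459 and 0.614). Among 8 temperature-responsive genes, 4 had higher and 4 lower values. Rbm3, a cold-induced RNA-binding protein, had 1412, 1421 and 1744 units in LKO livers, against 1036, 1181 and 1126 in control livers, without overlap (log2 change 0.45 ± 0.11, SE, limma adjusted p = 0.269). The Rbm3 probe A_55_P2117525 had a log2 difference of 0.26 without overlap, and A_55_P2901762 one of 0.28 with overlap. Cirbp, a relative of Rbm3, overlapped between the groups (log2 change -0.17 ± 0.27, SE) and so did the chaperone gene Hsp90aa1 (0.13 ± 0.20), with limma adjusted p = 0.861 and 0.852. The heat shock gene Hspa1a had an SE of 1.05 around a log2 change of -0.28, so for it only very large differences could have been seen.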
